A study of Mus musculus with 4 samples.

Results

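Transcripts of 10 genes that make or use glutathione, thioredoxin and NADPH, most of them known targets of the transcription factor NRF2, were followed in differentiating 3T3-L1 cells. The genes were Nqo1, Hmox1, Gclc, Gclm, Txnrd1, Gsr, Srxn1, Slc7a11, G6pdx and Prdx1, and all probe sets annotated to them were taken. Of these 10 genes, 8 were named by 17 probe sets of their own, out of 18194 genes so named on the array. Prdx1 was reached only through 5 probe sets that the annotation gives to Prdx1 and Gm21399 together, and G6pdx was not analysed here. Of the 8 genes, 7 passed the filter on dim signals described below, and Slc7a11 did not.

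3T3-L1 is a mouse fibroblast line that becomes fat cells under insulin, dexamethasone and isobutylmethylxanthine. Preadipocytes were given siRNA against aof2 (now Kdm1a, the flavin-dependent histone demethylase LSD1), siRNA against rfk (riboflavin kinase, which makes flavin mononucleotide) or a control siRNA named siGL3. Induction followed 24 h after transfection and harvest 24 h after induction. In a 4th culture tranylcypromine, an LSD1 and monoamine oxidase inhibitor, was in the induction medium; the labels name no dose and name no siRNA for it, so the drug and the lack of transfection cannot be told apart in its comparison. All cultures shared the medium with 25 mM glucose and 10% serum. Each condition was measured on 1 array, so every value below is a single measurement, no test between conditions is possible, and the number of arrays limits the precision.

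NRF2 (Nfe2l2) is held in the cytoplasm by KEAP1, which has it degraded; oxidants and electrophiles modify KEAP1, and NRF2 then enters the nucleus, pairs with small MAF proteins and binds antioxidant response elements, a place that the repressor BACH1 otherwise occupies. Its targets supply the pools of reduced glutathione and thioredoxin with which cells remove peroxides, and the NADPH that recharges both. Nqo1, Txnrd1 and Gsr encode enzymes that hold flavin adenine dinucleotide, the cofactor made downstream of riboflavin kinase and used by LSD1 itself, which is what ties the group to the study's question of flavin-dependent gene control.

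The promoter table from RefSeq (GRCm38.p6) gave 9 windows for 7 of the 10 genes, each with 250 bases before and 50 after a gene start. The core of the antioxidant response element, TGACNNNGC on either strand, was found in 5 of the 9 windows, and in 12.4% of all 32851 windows in the table. The matches belonged to Srxn1, Gclm, Prdx1, G6pdx and 1 of the 3 windows of Txnrd1, while the windows of Nqo1 and Slc7a11 held none. The 3 matches upstream of the start of genes measured here are shown with 20 bases on each side, because this is the element that NRF2 is known to bind. Capitals mark the match, which reads in the reverse direction in each, and all 3 stretches lie on the plus strand, at chr3:122245403-122245451 for Gclm, chr10:82859094-82859142 for Txnrd1 and chr4:116685446-116685494 for Prdx1.
Gclm: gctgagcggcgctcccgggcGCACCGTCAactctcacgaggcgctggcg
Txnrd1: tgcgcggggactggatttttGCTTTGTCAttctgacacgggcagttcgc
Prdx1: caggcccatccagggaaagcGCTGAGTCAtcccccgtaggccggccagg
The match began 134 bases before the start in Gclm, 92 in Txnrd1 and 133 in Prdx1. The Prdx1 match overlapped the AP-1 motif TGACTCA, which was searched on both strands and occurs in 5.2% of all windows, and those of Gclm and Txnrd1 did not. The match of Srxn1 lay 28 bases after its start and is not shown. A match of letters is a description, not evidence of binding.

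Values are MAS5 signals, a linear intensity per probe set that the authors had scaled to the same trimmed mean of 500.003 on each array, and differences are log2 treated minus control. A gene was represented by its brightest probe set. The filter left out genes with an average log2 level under that of the middle probe set, equal to a signal of 50.9, and 10788 genes remained. A gene was called at a 2-fold difference, and a wider call was made at 1.5-fold. The targeted genes bore out the labels. By its brightest probe set, Kdm1a stood at 19.5% of control with aof2 siRNA, 99.3% with rfk siRNA and 87.4% with tranylcypromine. The brightest probe set of Rfk stood at 95.1%, 27.0% and 110% in that order. Its other probe sets gave 113%, 39.7% and 127%, and 94.9%, 30.6% and 128%. All 9 preadipocyte and fibroblast markers passed the filter, with summed signals of 122095, 118359, 118711 and 112942 with aof2 siRNA, rfk siRNA, tranylcypromine and control siRNA. Of 7 fat cell markers 5 passed, and the summed signals of all 7 were 6420, 6892, 5850 and 8998 in the same order, while Adipoq and Cidec, which mark mature fat cells, lay below the filter. Markers of other cell types had low signals, though some passed the filter. Of the macrophage, endothelial, epithelial and muscle markers 2 of 5, 1 of 4, 1 of 4 and 1 of 4 passed. Those that passed were Csf1r and Cd14, Kdr, Epcam and Des, while Ptprc, Pecam1, Cdh1 and Myod1 were among those below the filter. The highest signal of any was 367, for Cd14 with tranylcypromine, and Epcam had 285 with aof2 siRNA and 202 with control siRNA. The RNA quality ratio of 3' over 5' Gapdh signal was 0.834 to 0.841. For beta-actin this ratio was 1.34 with aof2 siRNA, 1.25 with rfk siRNA, 1.28 with tranylcypromine and 1.27 with control siRNA. The poly-A control transcripts lay above the control array by a mean log2 of 0.29 with aof2 siRNA and 0.17 with rfk siRNA, and at -0.01 with tranylcypromine. In 5228 genes with several probe sets above the filter, the log2 differences of a gene's probe sets spanned a median of 0.31, 0.29 and 0.34 for the 3 comparisons.

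The group did not move as a block, and by the brightest probe sets its log2 differences from control lay between -0.72 and 0.53. By these probe sets, none of the 7 genes above the filter was 2-fold higher or lower in any treated culture. Of all genes, 1.61% were higher and 0.538% lower with aof2 siRNA, 0.927% and 0.806% with rfk siRNA, and 2.23% and 0.945% with tranylcypromine. A count of 0 among 7 genes is near those shares. Dimmer probe sets went past 2-fold lower for Txnrd1 with tranylcypromine, at -1.0, and for Srxn1 with aof2 siRNA, at -1.12. At 1.5-fold, 1 of 7 was lower with rfk siRNA and 1 of 7 with tranylcypromine, in both cases Hmox1, and 0 of 7 with aof2 siRNA. The background for a 1.5-fold lower signal was 3.8%, 4.77% and 2.88% in that order. None of the 7 was 1.5-fold higher, where the background was 6.26% with aof2 siRNA, 3.92% with rfk siRNA and 7.48% with tranylcypromine. Counts of 0 or 1 among 7 genes cannot be told apart from these shares, lower or higher. With aof2 siRNA 6 of 7 genes lay below control by any amount and with rfk siRNA 6 of 7, where 50.7% and 51.5% of all genes did. The 1 gene above control was Nqo1 in each, against a background of 49.3% and 48.5%. With tranylcypromine 5 of 7 lay above control, where 48% of all genes did, and 2 lay below it, where 52% did. These counts above and below control take in differences of any size and were not tested. The median log2 difference of the 7 genes was -0.14 with aof2 siRNA, -0.17 with rfk siRNA and 0.19 with tranylcypromine, and over all 10788 genes it was -0.004, -0.009 and -0.016. The sign with tranylcypromine depends on the probe sets: with all probe sets of a gene averaged the median was -0.07. Over the 4 genes whose probe sets do not disagree in direction, Nqo1, Hmox1, Gclc and Gsr, it was -0.16. Nqo1 and Hmox1 have 1 probe set each, so that value also reflects which genes remain. The 3 comparisons share the control array, so a high or low control signal enters all of them.

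**Figure D1:**
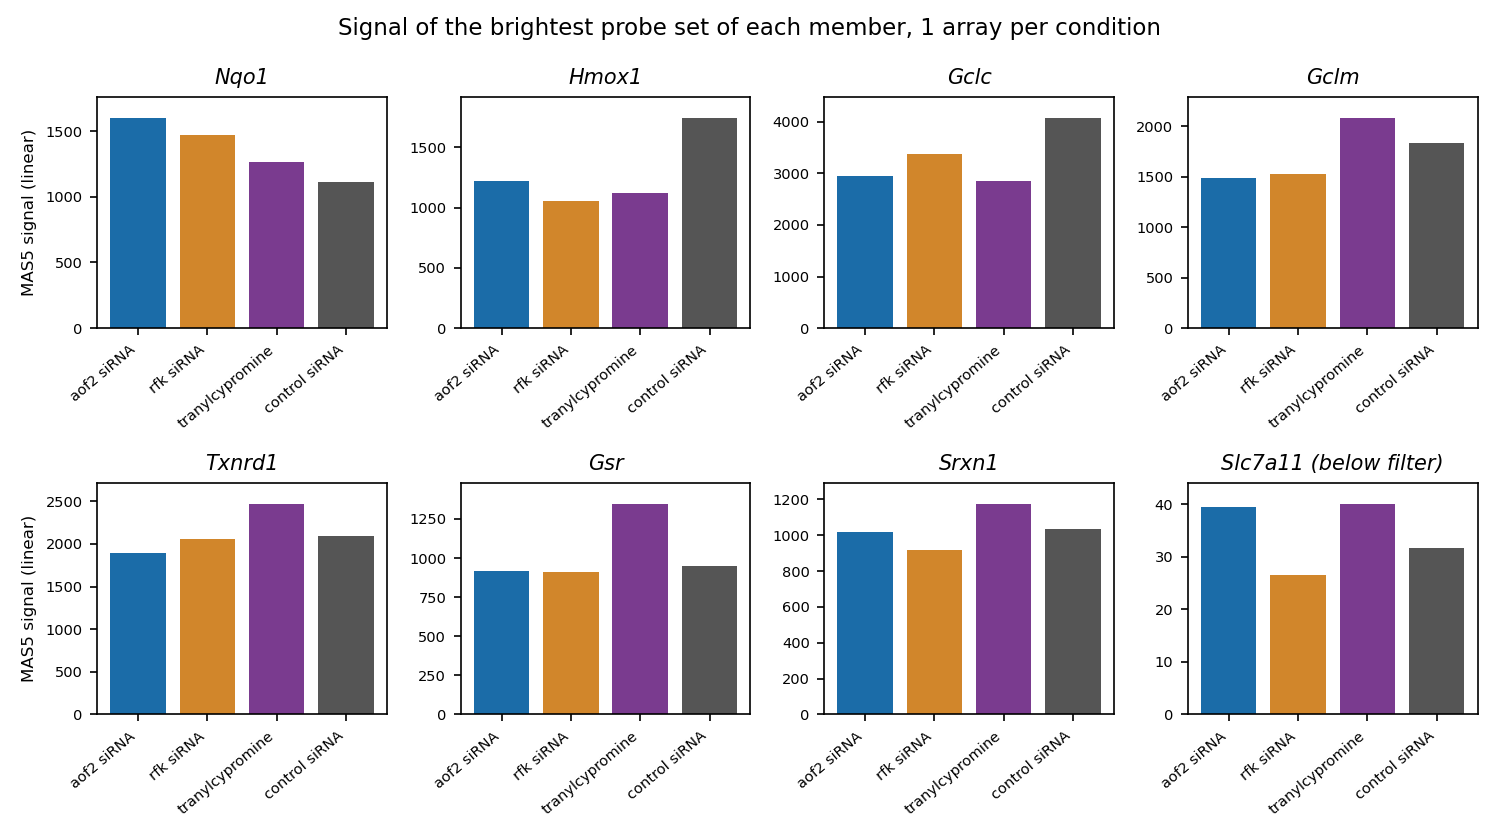
Bars give the linear MAS5 signal of the brightest probe set of 8 genes in the aof2 siRNA, rfk siRNA, tranylcypromine and control siRNA cultures, 1 array each, with vertical axes that start at 0 and differ between genes. Hmox1 and Gclc are highest in the control array, Nqo1 is lowest there, and Gclm, Txnrd1, Gsr and Srxn1 are highest with tranylcypromine.

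Hmox1, Gclc and Nqo1 were the genes in which the control array stood at one end. Hmox1 encodes haem oxygenase 1, which breaks haem into biliverdin, iron and carbon monoxide. It had signals of 1222 with aof2 siRNA, 1058 with rfk siRNA and 1119 with tranylcypromine, against 1747 with control siRNA. The treated cultures lay close together and all below the control, at 70.0%, 60.6% and 64.1% of its signal. The log2 differences were -0.52, -0.72 and -0.64, and 3.93%, 2.11% and 3.87% of all genes lay at least as far below control in those comparisons. It has 1 probe set, so no other probe set bears on its value. When each treated array was set against the mean of the 3 other arrays, Hmox1 stood at -0.06, -0.34 and -0.23, and the control array stood 0.63 above the mean of the treated ones.

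Gclc encodes the catalytic subunit of glutamate-cysteine ligase, the rate-limiting enzyme of glutathione synthesis. Its brighter probe set had signals of 2944 with aof2 siRNA, 3378 with rfk siRNA and 2851 with tranylcypromine, against 4079 with control siRNA. The control was the highest array and rfk siRNA the next. Log2 differences were -0.47, -0.27 and -0.52. The other probe set gave signals of 1650, 1822 and 1557 against 2174, or -0.40, -0.25 and -0.48. Both probe sets of Gclc therefore gave the same order of the 4 arrays. Set against the average of the rest, the brighter one stood at -0.21 with aof2 siRNA, 0.06 with rfk siRNA and -0.27 with tranylcypromine, so the direction with rfk siRNA turned, and the other gave 0.04 with rfk siRNA.

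Gclm encodes the modifier subunit, which lowers the feedback of glutathione on the enzyme. Its brighter probe set had signals of 1492 with aof2 siRNA, 1526 with rfk siRNA and 2088 with tranylcypromine, against 1840 with control siRNA. Log2 differences were -0.30, -0.27 and 0.18, so the siRNA cultures lay below control and the drug culture above it. The dimmer probe set, with signals of 240, 196 and 253 against 269, gave -0.16, -0.46 and -0.09. The probe sets shared the direction for both siRNAs and disagreed for tranylcypromine. The 2 subunits of the ligase thus stood apart in the drug culture, with Gclc at 69.9% of control and Gclm at 113% by its brighter probe set and 94.2% by its dimmer one.

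**Figure D2:**
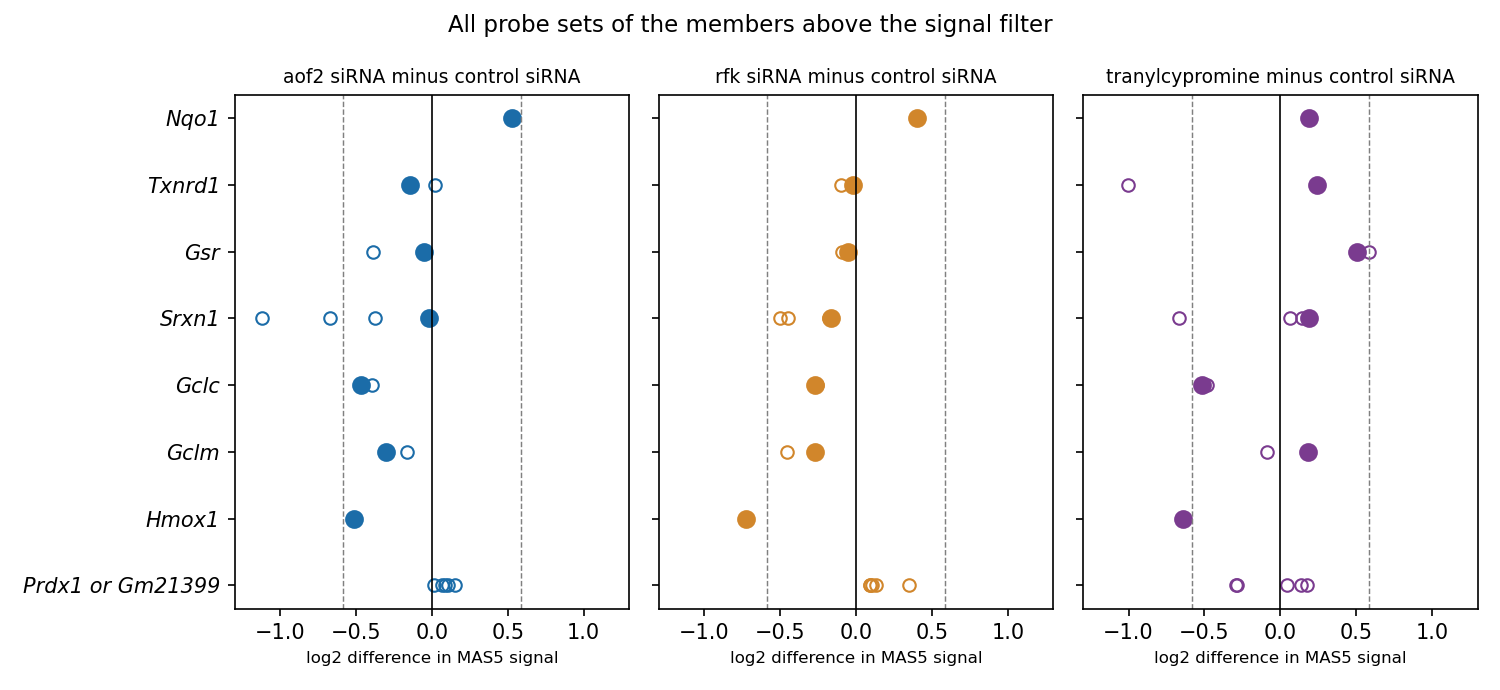
Each point is the log2 difference in MAS5 signal of 1 probe set above the filter, filled for the brightest probe set of a gene and open for the others, with 1 panel per comparison and dashed lines at 1.5-fold. The probe sets of Gclc and of Gsr lie on the same side of 0 in each panel, whereas those of Gclm, Txnrd1, Srxn1 and the shared Prdx1 probe sets spread to both sides with tranylcypromine.

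Among the enzymes that hold a flavin, Nqo1 and Gsr differed in which culture was high. Nqo1 encodes a quinone reductase that passes a pair of electrons from NADPH or NADH to quinones. Its only probe set had signals of 1604 with aof2 siRNA, 1468 with rfk siRNA and 1266 with tranylcypromine, against 1110 with control siRNA. The control was the lowest array, and Nqo1 was the only one of the 7 genes above control in all 3 comparisons, by log2 differences of 0.53, 0.40 and 0.19. Of all genes, 7.60%, 8.11% and 26.3% lay at least as far above control. Against the mean of the 3 other arrays Nqo1 stood at 0.33 with aof2 siRNA, 0.16 with rfk siRNA and -0.12 with tranylcypromine.

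Gsr encodes glutathione reductase, which returns oxidised glutathione to its reduced form with NADPH. Its brighter probe set had signals of 916 with aof2 siRNA, 912 with rfk siRNA and 1347 with tranylcypromine, against 947 with control siRNA. The siRNA and control arrays lay within a narrow band and the drug array alone was high. The other probe set had signals of 728, 894 and 1426, against 952 in control. With tranylcypromine the probe sets gave log2 differences of 0.51 and 0.58, and 9.48% of all genes lay at least as far above control as the brighter one. The drug array stood 0.54 and 0.74 above the average of the rest. With aof2 siRNA they gave -0.05 and -0.39, and with rfk siRNA -0.06 and -0.09.

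Txnrd1 encodes cytosolic thioredoxin reductase, a selenium-containing enzyme that keeps thioredoxin reduced. Its brightest probe set had signals of 1890 with aof2 siRNA, 2057 with rfk siRNA and 2471 with tranylcypromine, against 2089 with control siRNA, and log2 differences of -0.14, -0.02 and 0.24. A 2nd, far dimmer probe set had signals of 184, 170 and 90.5, against 181 in control, and gave 0.02, -0.10 and -1.0. The last, below the filter, gave -0.36, 0.19 and -1.69. The direction with tranylcypromine therefore depends on the probe set. The 3 genes for flavin enzymes had a median of -0.05 with aof2 siRNA, -0.02 with rfk siRNA and 0.24 with tranylcypromine. The last 2 of these medians are the values of the brightest Txnrd1 probe set itself. The other 4 genes had medians of -0.39, -0.27 and -0.17. So few genes give a description only.

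Srxn1 and Prdx1 act together on peroxides. Prdx1 encodes a peroxiredoxin that reduces hydrogen peroxide, and Srxn1 encodes sulfiredoxin, which repairs peroxiredoxins that have been over-oxidised. The brightest probe set of Srxn1 had signals of 1019 with aof2 siRNA, 920 with rfk siRNA and 1176 with tranylcypromine, against 1033 with control siRNA. Its log2 differences were -0.02, -0.17 and 0.19. The 3 dimmer probe sets gave -1.12, -0.67 and -0.38 with aof2 siRNA, and -0.45, -0.50 and -0.18 with rfk siRNA. All 4 thus lay below control with either siRNA, though by sizes that varied with the probe set. With tranylcypromine they gave -0.67, 0.14 and 0.06, and the one at -0.67 was the dimmest, with a signal of 69.1 against 110 in control.

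The probe sets shared by Prdx1 and Gm21399 were among the brightest of the group. The most intense had signals of 23897 with aof2 siRNA, 24300 with rfk siRNA and 25461 with tranylcypromine, against 22561 with control siRNA, a range over the arrays of 0.17 on the log2 scale. Over the 5 probe sets the log2 differences ran between 0.01 and 0.15 with aof2 siRNA and between 0.09 and 0.35 with rfk siRNA. With tranylcypromine 3 lay above control, up to 0.17, and 2 lay below it, at -0.29 each. Which of the 2 genes gave the signal cannot be told apart with these probe sets.

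Slc7a11, which encodes the cystine carrier that feeds glutathione synthesis, was dim. Its brighter probe set had signals of 39.4 with aof2 siRNA, 26.5 with rfk siRNA and 40.1 with tranylcypromine, against 31.6 with control siRNA, and the other probe set lay between 1.04 and 23.7. MAS5 differences at this level scatter widely, and no direction is drawn from them.

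**Figure D3:**
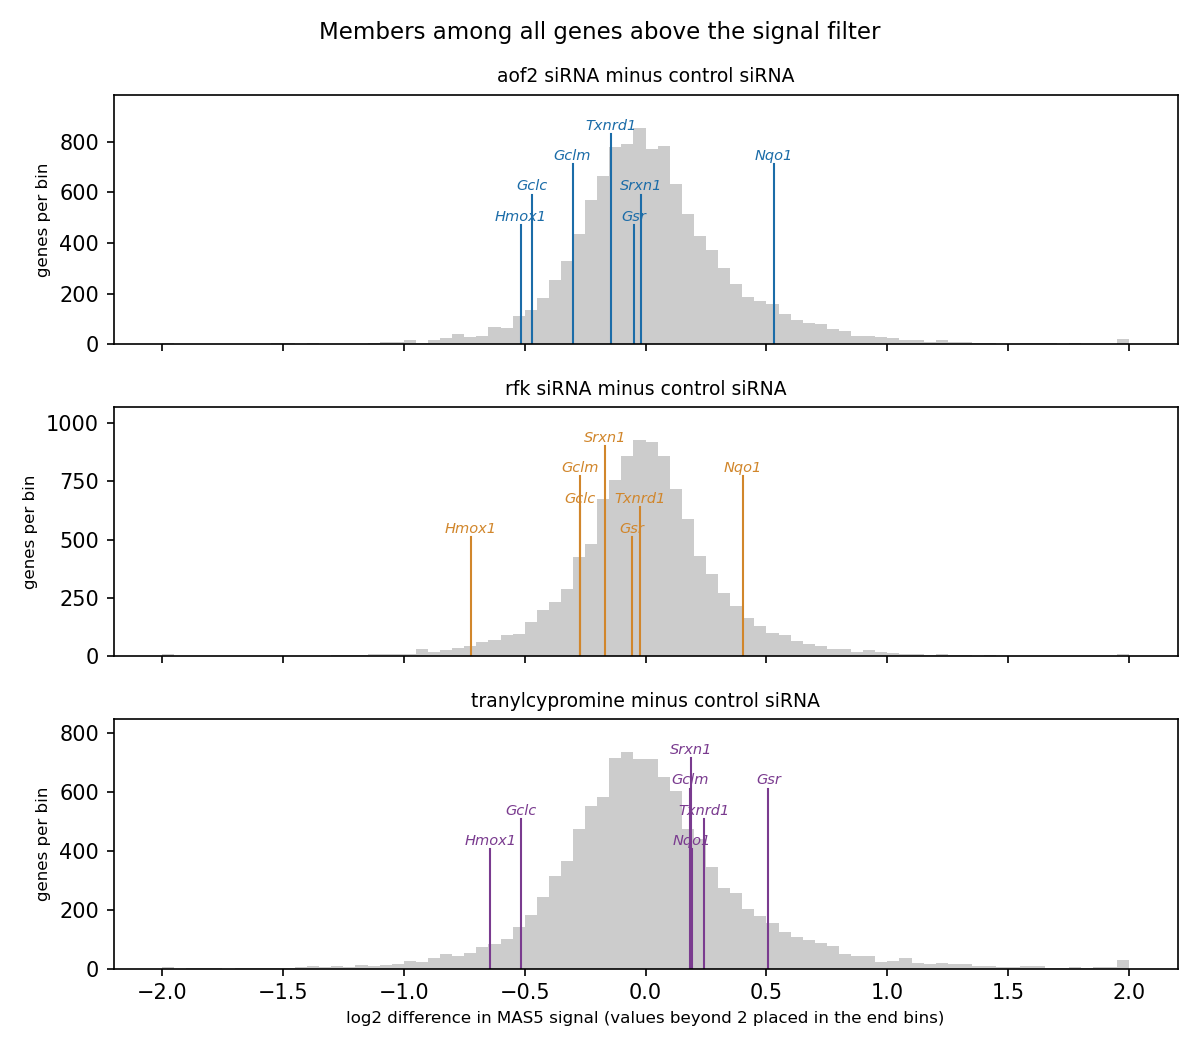
Grey bars count the 10788 genes above the filter by log2 difference in MAS5 signal, with 1 panel per comparison, and coloured lines mark the 7 genes that passed. Hmox1 lies in the lower shoulder in each panel, Nqo1 in the upper shoulder with both siRNAs, and Gsr in the upper shoulder with tranylcypromine.

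The factors that act on these genes differed little from control by their brightest probe sets. Nfe2l2 had signals of 3344 with aof2 siRNA, 3207 with rfk siRNA and 3450 with tranylcypromine, against 3886 with control siRNA, or -0.22, -0.28 and -0.17. Keap1 stood at -0.07, 0.06 and 0.19. Bach1, whose product competes with NRF2 and is a known repressor of Hmox1, had signals of 1935, 1819 and 1783, against 1438 in control, or 0.43, 0.34 and 0.31. Its control array was the lowest of the 4, but a 2nd probe set gave -1.15 with tranylcypromine. By their brightest probe sets, 0 of the 13 genes on the list of NRF2, its partners and its repressors differed by 1.5-fold in any comparison. Of all genes, 6.26%, 3.92% and 7.48% were 1.5-fold higher and 2.88%, 3.8% and 4.77% were 1.5-fold lower. A count of 0 among 13 genes is near that background. Dimmer probe sets went further, with Btrc down to -1.08 and Mafg up to 0.82 with aof2 siRNA. The medians of the list were -0.01, -0.07 and 0.07. These are transcript levels, and NRF2 is controlled largely through the stability of the protein, which was not measured.

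Among 16 further NRF2 targets and detoxification genes above the filter, the medians were -0.06 with aof2 siRNA, -0.15 with rfk siRNA and 0.05 with tranylcypromine. Of these 16 genes 8, 3 and 10 lay above control, where 49.3%, 48.5% and 48% of all genes did, so the count with aof2 siRNA is near the background. The counts with rfk siRNA and tranylcypromine take in differences of any size and were not tested against those shares. Gsta4, a glutathione transferase that removes the lipid peroxidation product hydroxynonenal, had signals of 3061, 3114 and 3555, against 1949 in control. It was above 1.5-fold in each comparison, at 0.65, 0.68 and 0.87, with the control as the lowest array. Abcc4, an exporter of cyclic nucleotides and conjugates, had signals of 1607, 972 and 1788, against 1119 in control, and passed 1.5-fold with tranylcypromine at 0.68. Abcc3, another conjugate exporter, was at 157 with tranylcypromine against 430 in control, a log2 difference of -1.46, and at -0.57 with aof2 siRNA and 0.01 with rfk siRNA. Aldh3a1, an aldehyde dehydrogenase, had a signal of 50.5 with rfk siRNA against 119 in control, a log2 difference of -1.24 at a level close to the filter. The drug-metabolising reductase Nqo2, a relative of Nqo1, gave -0.29, -0.57 and -0.01, but its probe sets reached 0.51, 0.39 and 0.83.

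In the glutathione list 23 genes passed the filter, with medians of 0.04, -0.04 and 0.16. Of the 23 genes 15, 10 and 15 lay above control, against the same background shares, and the count with rfk siRNA is near its background. The counts with aof2 siRNA and tranylcypromine were likewise not tested. Ggct, which breaks down gamma-glutamyl amino acids derived from glutathione, had signals of 719 with aof2 siRNA, 364 with rfk siRNA and 944 with tranylcypromine, against 410 in control. Its log2 differences were 0.81, -0.17 and 1.20, and it was the only gene of this list past 2-fold. Of all genes, 2.23% were 2-fold higher with tranylcypromine. Mgst3, a membrane-bound glutathione transferase, had signals of 6279, 3583 and 6753, against 3817 in control, or 0.72, -0.09 and 0.82; a 2nd probe set gave -0.08 with aof2 siRNA and 0.04 with tranylcypromine. Gss, the second enzyme of glutathione synthesis, stood at -0.18, -0.17 and -0.28. With rfk siRNA 0 of the 23 genes were 1.5-fold higher and 0 were 1.5-fold lower, where 3.92% and 3.8% of all genes were, so that a count of 0 among so few is near the background.

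**Figure D4:**
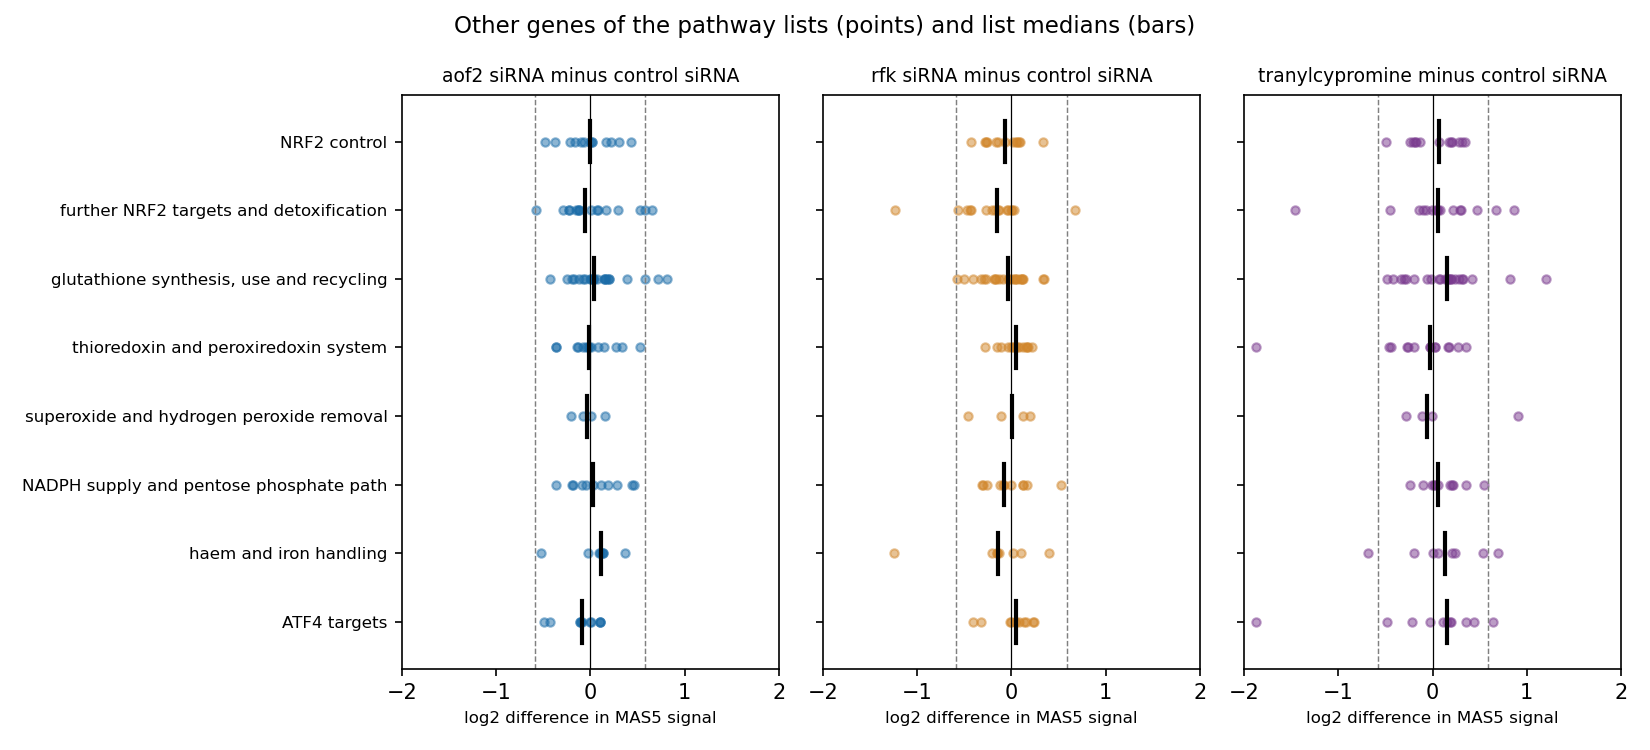
Points are the log2 differences in MAS5 signal of the genes above the filter in 8 lists, black bars are the list medians, and dashed lines mark 1.5-fold, with 1 panel per comparison. The medians lie between -0.15 and 0.16, and most single genes lie inside 1.5-fold.

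The remaining lists held a few separate genes past 1.5-fold. Of all genes, 6.26% were 1.5-fold higher and 2.88% lower with aof2 siRNA, and 3.92% and 3.8% with rfk siRNA. With tranylcypromine 7.48% were higher and 4.77% lower. Counts of 0 or 1 in lists this short cannot be told apart from those shares. Of 14 thioredoxin and peroxiredoxin genes 1 was called, Sesn2, a stress-induced regulator of amino acid sensing, with a signal of 162 with tranylcypromine against 593 in control; its probe sets gave -1.87 and -0.43. Of 4 genes that remove superoxide or hydrogen peroxide, Sod3, the secreted superoxide dismutase, was at 304 with tranylcypromine against 162 in control, a log2 difference of 0.90, and another probe set gave 0.53. None of the 11 genes of NADPH supply passed 1.5-fold, with medians of 0.03, -0.08 and 0.06. The closest was Taldo1, an enzyme of the pentose phosphate path, with 4966 with tranylcypromine against 3389 in control, or 0.55.

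Among 8 haem and iron genes Slc40a1, the iron exporter ferroportin, had signals of 115 with aof2 siRNA, 70.0 with rfk siRNA and 103 with tranylcypromine, against 166 in control. Its log2 differences were -0.53, -1.25 and -0.69, the control again being the highest array, as it was for Hmox1. Only 1 of the 2 Slc40a1 probe sets passed the filter, and the signal with rfk siRNA was close to the filter. In the list, 6, 3 and 6 of the 8 genes lay above control, where 49.3%, 48.5% and 48% of all genes did. The medians of the list were 0.11, -0.14 and 0.13. Tfrc, the transferrin receptor, stood at 0.70 with tranylcypromine, although its 6 probe sets ranged down to -0.55. ATF4 drives genes of amino acid stress and supply, Slc7a11 among them. The ATF4 list held 11 genes, Atf4 itself among them. In it Phgdh, the first enzyme of serine synthesis, had 7260 with tranylcypromine against 4666 in control, and its 4 probe sets lay between 0.48 and 0.64. Chac1, which degrades glutathione, stood at -0.43, -0.33 and 0.16, and Ddit3, a stress transcription factor, at -0.49, -0.41 and -0.48. The medians of the ATF4 list were -0.09, 0.05 and 0.16.

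The 5 fat cell markers above the filter did not share 1 order of the arrays. Fabp4, Pparg and Retn were highest in the control array, Fabp4 with signals of 1301 with aof2 siRNA, 791 with rfk siRNA and 1093 with tranylcypromine, against 2463 with control siRNA. Cebpa was lowest there, with 135, 93.4 and 112 against 91.7, and Lpl was at 3919, 5317 and 3808 against 5272. The part of the fat cell marker level, or of the poly-A control levels given above, in the values of Hmox1, Gclc and Nqo1 was not tested. In such bulk RNA, fewer cells of one kind and less RNA per cell cannot be told apart.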

How the data were processed

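Total RNA (250 ng per culture) was labelled with biotin and hybridised to 4 Affymetrix arrays of 45101 probe sets. The deposited values are MAS5 signals, a linear intensity per probe set; the submitters' processing notes name MAS5 without its version, and its detection calls and scaling target were not used here. Signals were taken to log2 with an offset of 0. Gene names came from the platform annotation: 34958 probe sets had 1 symbol, 932 had several and 9211 were unnamed here; the gene identifiers of 34754 probe sets matched the RefSeq table of GRCm38.p6. The array design is tied to no genome build here, so coordinates are given only for the RefSeq promoter sequences. The genes, the 8 lists (108 genes, 103 of them named) and the rule for named genes were chosen with earlier results of these data known. That rule took the 10 genes, the targets, Nfe2l2, Keap1 and Bach1, list genes at 1.5-fold, and up to the 2 highest and 2 lowest of a list. Chac1, Slc3a2 and Sesn2 are each in 2 lists. Cell type markers come from lists of their own. The steps were tested on simulated data. Alternatives are given in the closing section. Computation used pandas 2.3.3 and NumPy 2.4.6 under Python 3.11.15, with SciPy 1.17.1 for trimmed means and matplotlib 3.10.9 for figures.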

Additional observations from a re-analysis of the deposited data

How the results depend on the processing

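No paired analysis was possible because each condition has 1 array. The 8 planned settings were centring on the array medians, quantile normalization, an offset of 16, no filter, a filter at the 75th percentile, the mean of all probe sets, dropping probe sets not specific to 1 transcript, and the average of the remaining arrays in place of control. The call counts at 2-fold were 0 under all of them. The number of genes 1.5-fold lower with aof2 siRNA was 1 with centred arrays, against 0 as reported. With tranylcypromine it was 2 with the mean of all probe sets, where Txnrd1 stood at -0.82, against 1 as reported. Against the mean of the 3 other arrays it was 0 with rfk siRNA and 0 with tranylcypromine, because Hmox1 then stood at -0.34 and -0.23. Over the planned settings the median over the group ranged from -0.34 to -0.10 with aof2 siRNA and from -0.26 to -0.155 with rfk siRNA. The genes used were not always the same. The -0.34 came without Txnrd1, whose probe sets were dropped, and the -0.10 came with no filter, which let Slc7a11 in. With tranylcypromine the median was -0.07 with the mean of all probe sets, against 0.19 as reported, so its sign rests on the choice of probe set. It was -0.16 over the 4 genes whose probe sets do not disagree in direction, a setting added after the data were seen. Of these 4, Nqo1 and Hmox1 have 1 probe set each, so that value also reflects which genes remain. Gclc with rfk siRNA stood at 0.06 against the average of the remaining arrays, against -0.27 as reported. Gsr with tranylcypromine stayed between 0.44 and 0.55, and Nqo1 with aof2 siRNA between 0.33 and 0.56. Counting Prdx1 through its shared probe sets, also added later, gave medians of -0.10, -0.11 and 0.18. Without list genes whose probe sets disagree in direction, again added later, the medians of the 8 lists lay between -0.14 and 0.19. Signals of dim probe sets limit what can be said of Slc7a11.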
